A study of Drosophila melanogaster with 9 samples.

Results

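Fat bodies of larvae that carried an uninduced transgene for an active insulin receptor, and that were never heated (InRCA_noHS), were compared with fat bodies of heat-shocked larvae without the transgene (control_HS). The comparison takes 6 of the 9 libraries, 3 of each group, chosen by their labels, and all 10372 genes in the table. Every larva was the offspring of a hs-GAL4 driver female, whose GAL4 activator is made after heat. For InRCA_noHS the males came from stock 8263, which holds the constitutively active receptor UAS-InR.A1325D, and the larvae were transferred to a new vial at 25 °C without heat. For control_HS the males came from stock 6598, with the genotype y1w1118, and the larvae were heated to 37 °C for 30 min. The remaining libraries, InRCA_HS, are from the stock 8263 cross after the same heat shock, in which the receptor was induced. All larvae were labelled female, were in the feeding part of the mid-third instar, and had their fat bodies taken 6 h after the heat or mock treatment. The male stock and the heat shock differ together between InRCA_noHS and control_HS, so their parts in any difference cannot be told apart, and a stock 6598 cross without heat was not analysed here.

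The larval fat body combines the roles that liver and adipose tissue have in mammals. It stores fat and glycogen, secretes blood proteins, and releases antimicrobial peptides when the Toll and Imd pathways are active. A heat shock switches on genes for chaperones of the Hsp70, Hsp90 and small heat shock protein families, most of which are transcribed for a short time and then shut off. Near the end of larval life, pulses of the steroid ecdysone change the programme of the organ through a cascade of nuclear receptors and transcription factors.

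Levels are given as deposited and are called adjusted counts, since the values behave as read counts brought to a common library size; the adjustment is not described in the sources used here. Whole reads recovered from them summed to 8750740 to 17599170 per library. Pearson's r of log2 levels, taken across genes that are no replicates of each other, was 0.965 to 0.980 within groups and 0.934 to 0.961 between InRCA_noHS and control_HS libraries. On the first principal component, with 33.3% of the variance, the InRCA_noHS libraries lay at −27.3, −34.1 and −32.6, against 14.8, 55.6 and 37.7 for control_HS replicates 1, 2 and 3. Replicate 1 of control_HS stood apart from the others of its group, and its quality weight of 0.420 was the lowest of the 9 that limma estimated, against 0.792 to 1.55 for the others. The fat body markers were abundant in every library: 8 were in the table, 0 rose and 0 fell. Their summed level was 2611650 to 3931000 adjusted counts in InRCA_noHS and 3619700 to 4071060 in control_HS. Their median log2 fold change was −0.57 relative to that of all genes, and 6 of the 8 were below 0. With TMM scaling 1 of them fell, as it did without control_HS replicate 1. Whether libraries of 1 group were separate cultures or animals is not stated in the labels, and p-values therefore reflect the spread among these libraries, which could be technical.

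In InRCA_noHS 337 genes were higher and 392 lower than in control_HS, which is 3.25% and 3.78% of all genes tested, or 7.03% in either direction (limma on log2(adjusted count + 1), two-sided, Benjamini-Hochberg adjusted p under 0.05). The higher genes differed by a median of 2.28-fold and by up to 39.9-fold, and the lower ones by a median of 2.57-fold and by up to 113-fold. Rises over 4-fold numbered 57 and falls over 4-fold numbered 93, while 8 rises and 16 falls passed 16-fold. In all 729 called genes the InRCA_noHS libraries lay wholly above or wholly below the control_HS libraries, which was so for 17.2% (above) and 10.4% (below) of all genes. The test picks genes with a wide gap relative to the spread of these same values, so this separation is no separate support for the calls. The median log2 fold change over all genes was 0.12, and the balance of calls followed the scaling. With TMM scaling, which brought that median to 0.00, 220 genes were higher and 541 lower, so that 28.9% of calls were higher instead of 46.2%. List medians are therefore given relative to the median of all genes. The counts also followed single libraries: they were 681 higher and 740 lower without control_HS replicate 1, but 103 and 164 without replicate 2 and 219 and 224 without replicate 3. Leaving out an InRCA_noHS library gave 168 and 253 (replicate 1), 107 and 168 (replicate 2) or 96 and 179 (replicate 3). In every one of the 9 fits without 1 library, 68 of the rises and 138 of the falls were called. Where fewer cells of a type and less RNA per cell could both lower a gene, these bulk samples cannot tell them apart.

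**Figure D1:**
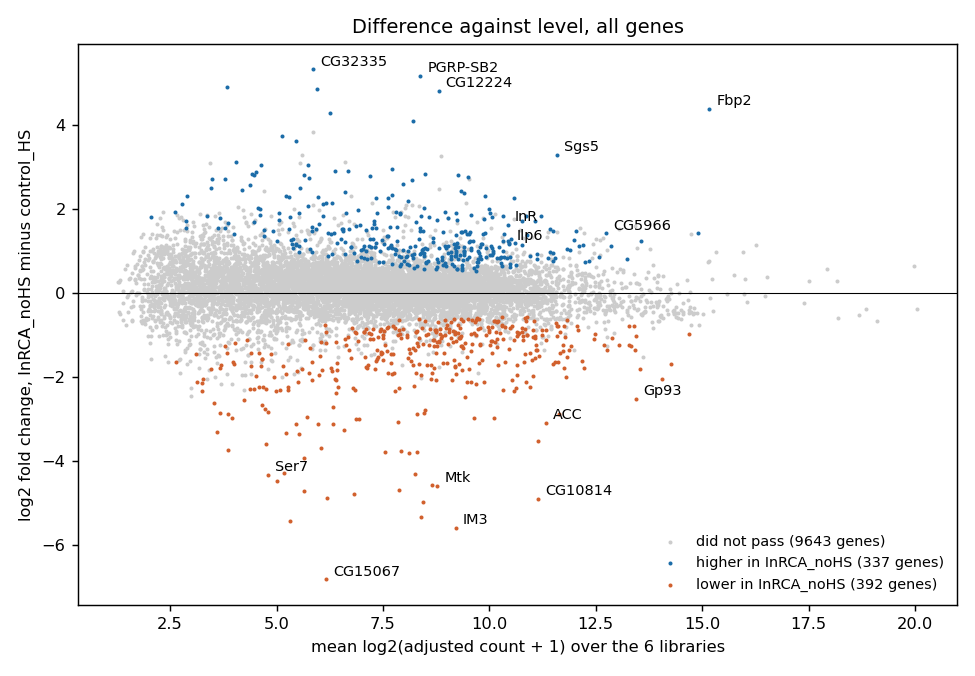
Log2 fold change of each gene, InRCA_noHS minus control_HS (y axis), against its mean log2(adjusted count + 1) over the 6 libraries compared (x axis). Blue points are the 337 genes that were higher, orange points the 392 that were lower and grey points those that did not pass the test; the most strongly lowered genes reach beyond the most strongly raised ones.

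InR (FBgn0013984), which encodes the insulin receptor and is the gene of the transgene, was 3.09-fold higher in InRCA_noHS than in control_HS (adjusted p = 0.00467, log2 fold change 1.63, SE 0.25). Its level was 1821, 3662 and 2128 adjusted counts in InRCA_noHS, against 743, 785 and 826 in control_HS. All 3 unheated libraries of the transgene cross thus lay above every control, with replicate 2 the highest. The difference held in all 9 fits without 1 library. For scale, InRCA_HS had 66688, 47774 and 60402, and these values do not separate resident InR from transgene reads. The eye colour gene w had 72.0, 112 and 71.8 adjusted counts in InRCA_noHS and 52.4, 38.6 and 69.0 in control_HS, a difference that did not pass the test (log2 fold change 0.67, adjusted p = 0.128). In InRCA_HS w had 1491.5, 1302.4 and 1228.9, far above both groups.

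The strongest falls were those of immune-induced peptide genes. The IM genes encode small peptides that fat body cells secrete into the blood after infection. Of the 5 in the table, 4 fell (80%, against 3.78% of all genes) and 0 rose. The list's median was −5.46 relative to that of all genes on the log2 scale. IM3 (FBgn0040736) had 33.9, 158 and 110 adjusted counts in InRCA_noHS, 748, 895 and 2312 in InRCA_HS, and 3790, 6136 and 2975 in control_HS. IM1 (FBgn0034329) had 25.7, 115 and 46.6 in InRCA_noHS, 152, 312 and 540 in InRCA_HS, and 2000, 2810 and 1721 in control_HS. The 3 groups did not overlap for either gene, and the heated libraries of the transgene cross lay between the others. IM3 was 48.3-fold lower in InRCA_noHS than in control_HS (adjusted p = 0.000393, log2 fold change −5.59, SE 0.55), and IM1 was 40.4-fold lower (−5.34, SE 0.53, adjusted p = 0.000393). IM4 (FBgn0040653) fell 43.3-fold (adjusted p = 0.00528) and IM2 (FBgn0025583) 31.5-fold (adjusted p = 0.000461). The fifth, IM10, had 1.78, 3.08 and 2.50 adjusted counts in InRCA_noHS against 14.6, 18.4 and 5.84 in control_HS, and did not pass (adjusted p = 0.0689).

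The gene with the largest change of all, CG15067 (FBgn0034331), lies among the IM genes. It had 2.33, 14.3 and 4.87 adjusted counts in InRCA_noHS, 42.1, 153 and 137 in InRCA_HS, and 979, 827 and 528 in control_HS. It was 113-fold lower in InRCA_noHS (log2 fold change −6.82, SE 0.58, adjusted p = 0.000191). The genes in the table were put in the order of the Ensembl annotation of the BDGP6 genome. In this order IM1, CG15067, IM2, IM3, CG16836 and CG15068 stand next to each other on chromosome arm 2R, and all 6 fell. Annotated genes absent from the table were passed over, so others may lie between them. CG16836 fell 9.62-fold (adjusted p = 0.00639) and CG15068 fell 13.3-fold (adjusted p = 0.0302); both were named after their values were seen. The falls of IM1 to IM4, CG15067 and CG16836 held in all 9 fits without 1 library. That of CG15068, whose level was 1.88 to 4.10 in InRCA_noHS and 17.4 to 111 in control_HS, was lost without any 1 of the InRCA_noHS libraries or without control_HS replicate 2 or 3 (adjusted p up to 0.12, without control_HS replicate 2).

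Of 14 antimicrobial peptide genes in the table, 7 fell as well (50%, against 3.78% of all genes) and 0 rose. The list median was −2.24 relative to that of all genes, and without control_HS replicate 1 the counts were 10 and 1. Metchnikowin (Mtk, FBgn0014865), an antifungal peptide, had 55.5, 92.5 and 134 adjusted counts in InRCA_noHS, 298, 1311 and 1393 in InRCA_HS, and 2489, 1656 and 2385 in control_HS. It was 24.0-fold lower in InRCA_noHS (log2 fold change −4.59, SE 0.52, adjusted p = 0.000981). The diptericins act on Gram-negative bacteria. DptB fell 13.9-fold, with 114, 89.4 and 38.8 adjusted counts in InRCA_noHS against 789, 1632 and 868 in control_HS (adjusted p = 0.00304). Dpt fell 5.56-fold (adjusted p = 0.00908), and the attacin gene AttC fell 4.73-fold (adjusted p = 0.00516). In InRCA_HS, Dpt stood at 265, 124 and 584, and AttC at 1062, 1107 and 1740, on the InRCA_noHS side of the midpoint in all 3 libraries.

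These 4 falls held in all 9 fits without 1 library, while those of the other 3 genes did not. The cecropin gene CecC fell 12.1-fold (adjusted p = 0.0138), but not without InRCA_noHS replicate 3, control_HS replicate 2 or control_HS replicate 3 (adjusted p up to 0.0634, without control_HS replicate 2). Drosocin (Dro) fell 5.22-fold (adjusted p = 0.0289), but not without any 1 InRCA_noHS library, control_HS replicate 2 or control_HS replicate 3 (up to 0.0947, without InRCA_noHS replicate 2). Drosomycin (Drs), the classical readout of the Toll pathway, had 5738, 6042 and 8281 adjusted counts in InRCA_noHS and 16258, 18809 and 13184 in control_HS. Its fall of 2.41-fold (adjusted p = 0.0424) was called only in the fits without InRCA_HS replicate 1 or 3, and reached 0.160 without control_HS replicate 2.

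Among 32 genes of pathogen recognition and of Toll and Imd signalling, 7 fell (21.9%) and 2 rose (6.25%), against 3.78% and 3.25% of all genes. The list's median was −0.35 relative to that of all genes. The falls included the protease genes SPE and grass at the extracellular end of the Toll pathway. At that end modSP, spz, psh and nec did not pass, with log2 fold changes of 0.52, 0.73, −0.20 and −0.27 (adjusted p 0.109 to 0.706). SPE (FBgn0039102), the protease that cleaves the Toll ligand Spätzle into its active form, had 181, 125 and 97.6 adjusted counts in InRCA_noHS, 264, 230 and 322 in InRCA_HS, and 738, 1146 and 1028 in control_HS. It was 7.27-fold lower in InRCA_noHS (log2 fold change −2.86, SE 0.25, adjusted p = 0.000218). Both sets of libraries from the transgene cross lay under every control. The protease gene grass, which acts upstream of SPE, fell 3.14-fold (adjusted p = 0.00149), with 813, 631 and 810 in InRCA_noHS and 1768, 3019 and 2416 in control_HS. Its InRCA_HS levels of 2140, 2600 and 2622 were all on the control side. The receptor gene Tl fell 2.05-fold (adjusted p = 0.0127), a call lost without InRCA_noHS replicate 2, InRCA_noHS replicate 3 or control_HS replicate 2 (up to 0.0620, without InRCA_noHS replicate 3).

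Peptidoglycan recognition proteins bind fragments of bacterial cell walls, and some of them degrade these fragments. The secreted amidase gene PGRP-SC2 (FBgn0043575) had 43.1, 123 and 111 adjusted counts in InRCA_noHS against 870, 2248 and 825 in control_HS. It fell 13.8-fold (log2 fold change −3.79, SE 0.51, adjusted p = 0.00255), and its InRCA_HS libraries, at 1464, 2008 and 4418, lay on the control side. PGRP-SB1 fell 3.51-fold (adjusted p = 0.00375). Both falls held in all 9 fits without 1 library. PGRP-SB2 went the other way, with 1190, 2421 and 2714 in InRCA_noHS, 1177, 4218 and 373 in InRCA_HS, and 275, 6.39 and 81.0 in control_HS. Its controls varied widely among themselves. It rose 36.1-fold (SE 1.15 on the log2 scale, adjusted p = 0.0247), and lost the call without any 1 InRCA_noHS library or without control_HS replicate 2 or 3 (up to 0.0888, without InRCA_noHS replicate 3). The Imd inhibitor gene pirk rose 2.42-fold, with 215, 232 and 268 in InRCA_noHS and 125, 70.0 and 106 in control_HS (adjusted p = 0.0119; 0.0561 without InRCA_noHS replicate 3, the only library whose removal ended the call). The Turandot genes encode stress-induced secreted peptides, and 3 were in the table. TotC fell 8.74-fold (adjusted p = 0.00850). TotB had 18.8, 24.7 and 60.1 in InRCA_noHS against 2.91, 3.45 and 1.87 in control_HS, without overlap, and narrowly missed the threshold (log2 fold change 3.09, SE 0.83, adjusted p = 0.0501). TotA differed by 0.14 on the log2 scale and did not pass (adjusted p = 0.789).

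**Figure D2:**
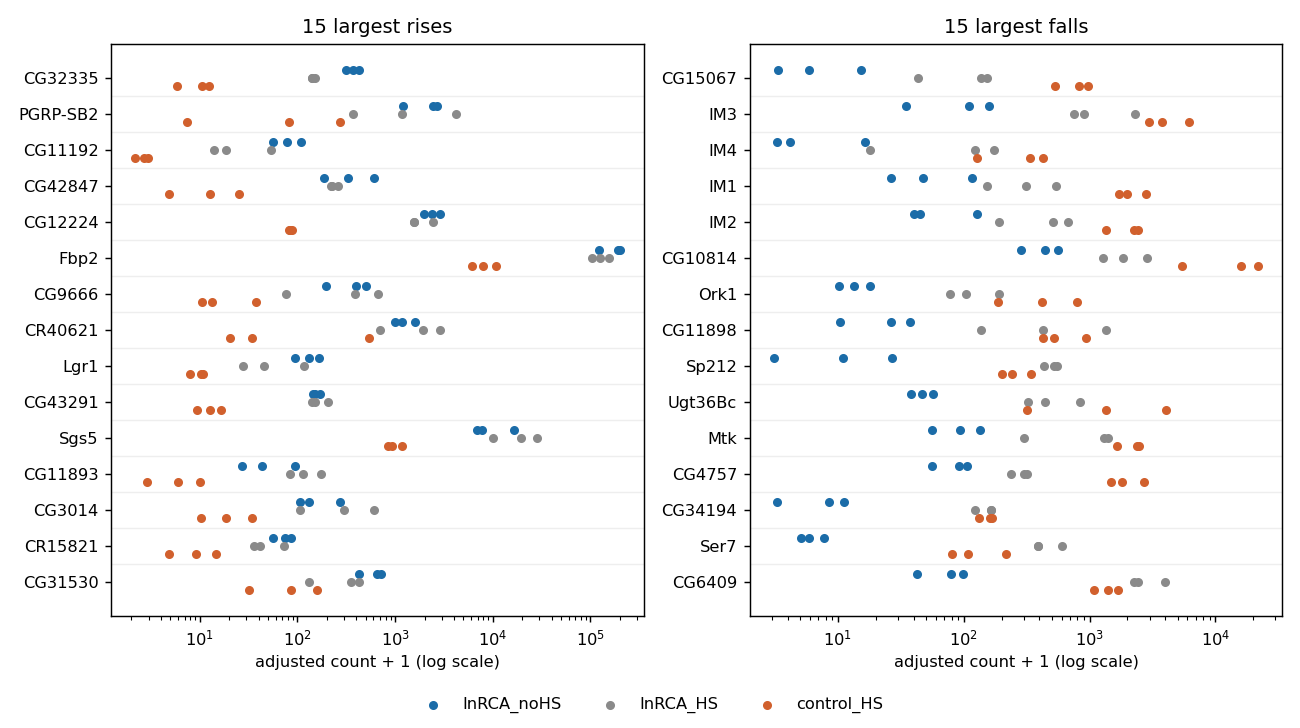
Adjusted count + 1 (log scale) in each library for the 15 largest rises (left) and the 15 largest falls (right) among called genes, with InRCA_noHS in blue, InRCA_HS in grey and control_HS in orange. For CG32335 all InRCA_noHS libraries are at 312 to 424 adjusted counts and all control_HS libraries at 4.82 to 11.5; for Ser7 the InRCA_HS libraries lie above both other groups.

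Several other large falls were those of genes whose InRCA_HS libraries lay on the control side of the midpoint between InRCA_noHS and control_HS. The serine protease gene Ser7 (FBgn0019929) had 4.89, 4.13 and 6.77 adjusted counts in InRCA_noHS, 607, 387 and 392 in InRCA_HS, and 108, 215 and 79.6 in control_HS. Its log2 fold change in InRCA_noHS was −4.33 (SE 0.36, adjusted p = 0.000148). The unheated libraries were lower than every heated one of either cross. The protease gene Sp212 had 9.99, 2.12 and 25.7 in InRCA_noHS, 552, 522 and 437 in InRCA_HS, and 199, 343 and 243 in control_HS, a fall of 26.4-fold (adjusted p = 0.00154). CG6409 (FBgn0036106) had 41.2, 97.6 and 77.9 in InRCA_noHS, 3989, 2270 and 2445 in InRCA_HS, and 1074, 1679 and 1389 in control_HS, a fall of 19.7-fold (adjusted p = 6.68e-05). For these genes too the unheated libraries stood below all others, with no overlap. CG34194 followed with 22.4-fold (adjusted p = 0.000218) and CG11898 with 27.4-fold (adjusted p = 0.00436).

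Among the remaining genes of the 15 largest falls were Ork1, which encodes a potassium leak channel, and Ugt36Bc, a UDP-glycosyltransferase gene of the family that conjugates small lipophilic molecules. Ork1 fell 29.3-fold, with 16.8, 9.28 and 12.5 adjusted counts in InRCA_noHS, 76.5, 104 and 189 in InRCA_HS and 186, 794 and 417 in control_HS (adjusted p = 0.000427). Ugt36Bc fell 25.7-fold, with 37.2, 45.2 and 56.3 in InRCA_noHS, 325, 838 and 445 in InRCA_HS and 316, 4045 and 1339 in control_HS (adjusted p = 0.00479). In both genes the controls differed among themselves several fold, with replicate 2 the highest. CG10814 (FBgn0033830) fell 30.0-fold, with 444, 283 and 561 in InRCA_noHS, 1275, 1851 and 2840 in InRCA_HS and 5455, 21901 and 16072 in control_HS (adjusted p = 0.000387). CG4757 fell 23.7-fold, with 55.2, 106 and 91.3 in InRCA_noHS, 318, 303 and 236 in InRCA_HS and 1802, 1491 and 2725 in control_HS (adjusted p = 1.48e-05). All 15 of the largest falls held in all 9 fits without 1 library.

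Secreted proteins are folded in the endoplasmic reticulum (ER), with the help of its own chaperones. Of 14 ER chaperone and folding genes, 8 fell (57.1%, against 3.78% of all genes) and 0 rose. The list's median was −0.98 relative to that of all genes, and without control_HS replicate 1 the counts were 10 and 1. CaBP1 (FBgn0025678), a protein disulfide isomerase family member, had 1147, 1262 and 1093 adjusted counts in InRCA_noHS, 2802, 3676 and 4085 in InRCA_HS, and 4691, 14415 and 9591 in control_HS. It fell 7.42-fold (log2 fold change −2.89, SE 0.33, adjusted p = 0.00105). Gp93 (FBgn0039562), the Hsp90 of the ER, had 4372, 4891 and 4809 in InRCA_noHS, 11639, 13998 and 17640 in InRCA_HS, and 18879, 40872 and 25176 in control_HS. It fell 5.74-fold (log2 fold change −2.52, SE 0.28, adjusted p = 0.000751). For both genes the unheated libraries agreed closely with each other and lay under all heated ones. The ER cochaperone gene P58IPK fell 4.19-fold (adjusted p = 0.00224), and Hsc70-3, the ER Hsp70 known as BiP, fell 3.25-fold, with 10148, 10569 and 12274 in InRCA_noHS, 22490, 28437 and 32126 in InRCA_HS and 32951, 54067 and 25273 in control_HS (adjusted p = 0.00720). These 4 falls held in all 9 fits without 1 library. The calreticulin gene Crc fell 2.56-fold (adjusted p = 0.0114; 0.0508 without InRCA_noHS replicate 3, which alone ended the call).

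Many genes of the machinery that moves new proteins into the ER and onward to the Golgi were lower as well. This list and that of the vesicle coats were added after values had been seen. All 18 translocon, signal recognition and signal peptidase genes had a log2 fold change below 0, between −1.30 and −0.15. Of these, 11 passed as falls (61.1%, against 3.78% of all genes), and the median was −0.95 relative to that of all genes. Gtp-bp, the signal recognition particle receptor, fell 2.18-fold, with 1579, 1682 and 2025 adjusted counts in InRCA_noHS, 2343, 2662 and 2664 in InRCA_HS and 3200, 4352 and 3978 in control_HS (adjusted p = 0.00428). Tapdelta, a subunit of the complex next to the channel, fell 2.21-fold (adjusted p = 0.00702). Sec61alpha, the channel itself, fell 2.14-fold with 3728, 3845 and 4061 in InRCA_noHS, 8099, 8077 and 10692 in InRCA_HS and 6603, 11088 and 7826 in control_HS (adjusted p = 0.0127; 0.0540 without InRCA_noHS replicate 2). Its InRCA_HS libraries were on the control side throughout. Trp1 fell 2.45-fold (adjusted p = 0.0114; 0.0511 without InRCA_noHS replicate 3). Of 11 COPI and COPII coat genes 4 fell (36.4%) and 0 rose, among them sec13 of the COPII coat, at 2.16-fold (adjusted p = 0.00625). The coat genes betaCop, beta'Cop and sec23 fell 1.64-fold, 1.73-fold and 1.72-fold, but each lost its call without any 1 InRCA_noHS library or without control_HS replicate 2, and sec23 also without control_HS replicate 3 (adjusted p up to 0.125, for betaCop without control_HS replicate 2).

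**Figure D3:**
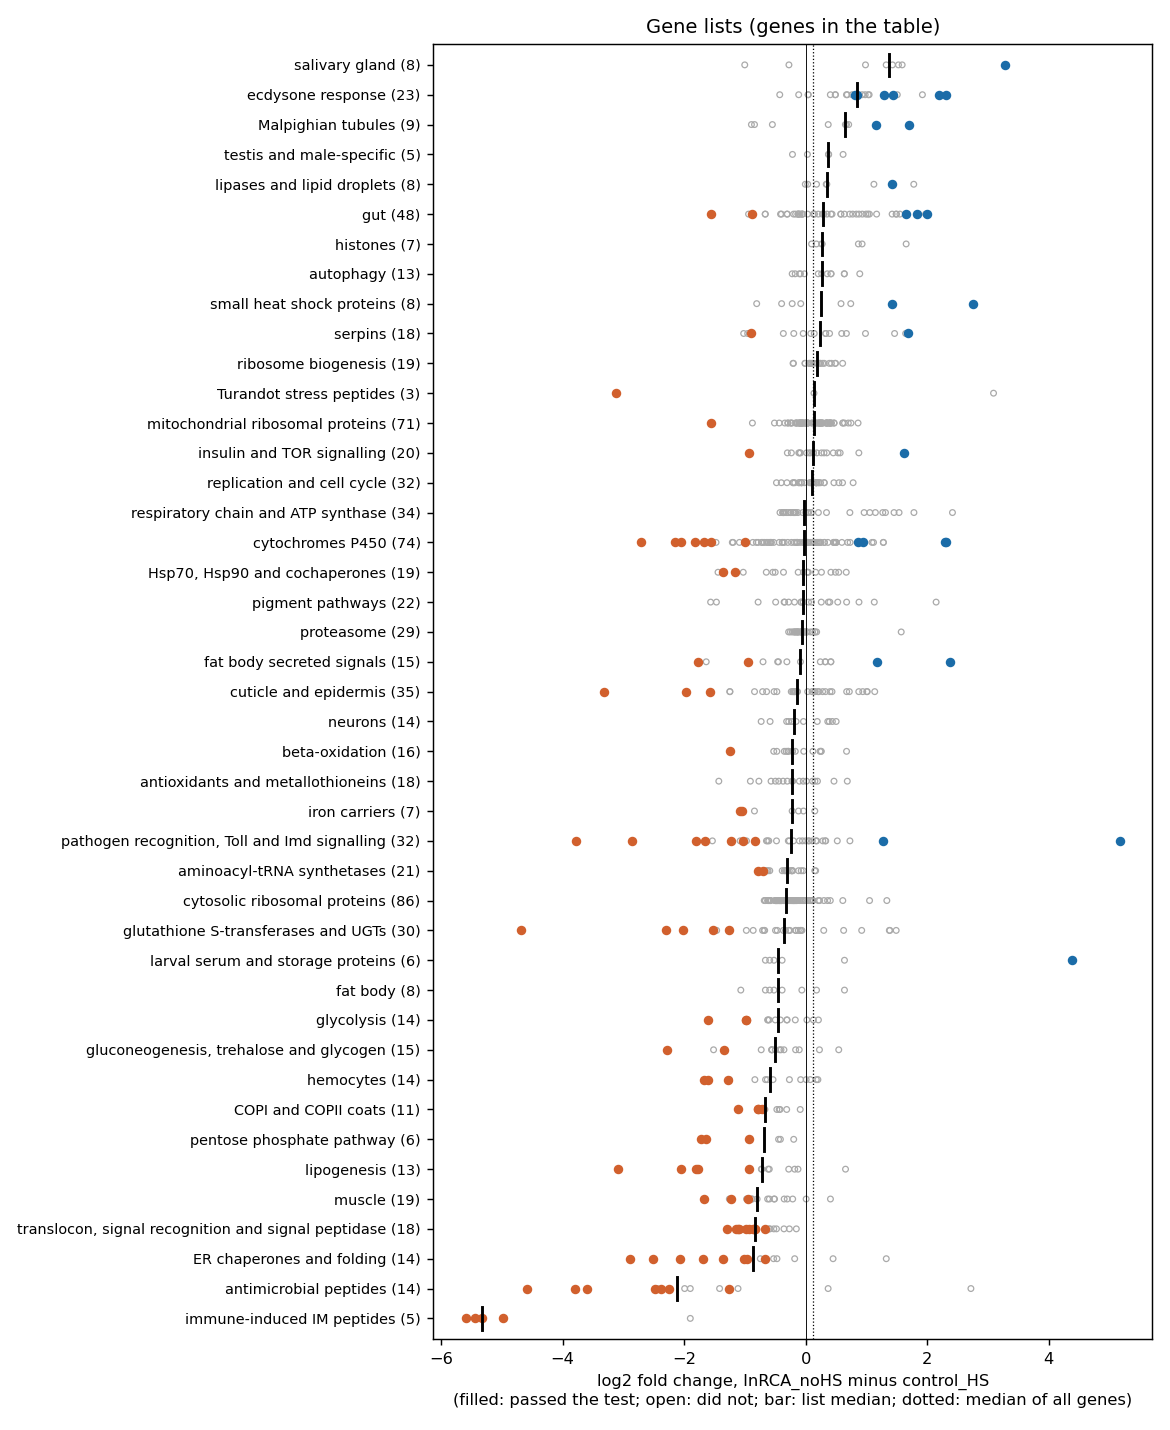
Log2 fold change, InRCA_noHS minus control_HS (x axis), of every gene in the table that belongs to each list (rows, with the number of genes). Filled points passed the test (blue higher, orange lower), open points did not, bars are list medians and the dotted line is the median of all genes, 0.12; the IM peptides, antimicrobial peptides and ER chaperones lie farthest to the left, and the salivary gland markers and the ecdysone response farthest to the right.

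Several genes for enzymes that make fatty acids were lower in InRCA_noHS. Of 13 lipogenesis genes 5 fell (38.5%, against 3.78% of all genes) and 0 rose, with a median of −0.84 relative to that of all genes. ACC (FBgn0033246), the acetyl-CoA carboxylase of the committed step, had 1016, 810 and 824 adjusted counts in InRCA_noHS, 3980, 4939 and 7345 in InRCA_HS, and 5179, 14055 and 5826 in control_HS. It fell 8.54-fold (log2 fold change −3.09, SE 0.35, adjusted p = 0.000958). CG3523, a fatty acid synthase gene, had 12322, 5879 and 7983 in InRCA_noHS, 19782, 29978 and 38131 in InRCA_HS, and 25143, 51414 and 31775 in control_HS, a fall of 4.14-fold (adjusted p = 0.00850). AcCoAS, an acetyl-CoA synthetase gene, fell 3.43-fold (adjusted p = 0.00850). In these 3 genes the unheated libraries lay below every heated library of either cross, and the calls held in all 9 fits without 1 library. HLH106, the fly SREBP transcription factor, fell 1.90-fold (adjusted p = 0.0277), but not without any 1 InRCA_noHS library or without control_HS replicate 2 or 3 (up to 0.108, without InRCA_noHS replicate 2). The fifth, the desaturase gene desat1, had a log2 fold change of −1.80 and was named after its values were seen.

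The pentose phosphate pathway yields NADPH for lipid synthesis. Of its 6 genes 3 fell (50%, against 3.78% of all genes) and 0 rose, and the median was −0.81 relative to that of all genes. Pgd, the 6-phosphogluconate dehydrogenase, had 1042, 981 and 1010 adjusted counts in InRCA_noHS, 2663, 3379 and 3448 in InRCA_HS and 2789, 5050 and 2248 in control_HS, a fall of 3.13-fold (adjusted p = 0.00523). Zw, the glucose-6-phosphate dehydrogenase, fell 3.30-fold (adjusted p = 0.0123), but not without InRCA_noHS replicate 2 or 3 (up to 0.0582, without replicate 3). Glycolysis had 3 falls (21.4%) and 0 rises among 14 genes, with a median of −0.58 relative to that of all genes. Pgi, which interconverts glucose-6-phosphate and fructose-6-phosphate, fell 3.06-fold, with 3287, 2270 and 2494 in InRCA_noHS, 4441, 5021 and 5718 in InRCA_HS and 5685, 12377 and 7610 in control_HS (adjusted p = 0.00666). The enolase gene Eno fell 1.98-fold (adjusted p = 0.0330), but not without any 1 InRCA_noHS library or without control_HS replicate 2 or 3 (up to 0.130, without control_HS replicate 2).

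Of 15 genes for gluconeogenesis, trehalose and glycogen, 2 fell (13.3%, against 3.78% of all genes) and 0 rose. Their median was −0.62 relative to that of all genes. The glycogen branching enzyme gene CG33138 fell 4.84-fold, with 853, 690 and 617 adjusted counts in InRCA_noHS, 2536, 3166 and 3796 in InRCA_HS and 2272, 6518 and 2791 in control_HS (adjusted p = 0.00412). The trehalose synthesis gene Tps1 fell 2.55-fold (adjusted p = 0.0310), but not without InRCA_noHS replicate 2 or 3 or control_HS replicate 2 or 3 (up to 0.123, without control_HS replicate 2). Beta-oxidation had 1 fall (6.25%) and 0 rises among 16 genes, that of the acyl-CoA dehydrogenase gene CG3902 (2.37-fold, adjusted p = 0.00772). Among 8 lipase and lipid droplet genes 1 rose (12.5%, against 3.25% of all genes) and 0 fell. It was CG5966 (FBgn0029831), a predicted lipase gene, with 11491, 11071 and 11052 in InRCA_noHS, 2255, 2010 and 2184 in InRCA_HS and 4052, 3052 and 5908 in control_HS. CG5966 rose 2.68-fold (log2 fold change 1.42, SE 0.22, adjusted p = 0.00479), and its unheated libraries stood above all heated ones.

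The cytosolic heat shock genes differed in both directions. Of 19 genes of the Hsp70 and Hsp90 families and their cochaperones 2 fell (10.5%, against 3.78% of all genes) and 0 rose. Their median was −0.16 relative to that of all genes, and without control_HS replicate 1 the counts were 3 and 1. Hsp68 (FBgn0001230), a heat-inducible member of the Hsp70 family, had 1235, 1996 and 1051 adjusted counts in InRCA_noHS, 1117, 1444 and 1557 in InRCA_HS, and 2222, 5267 and 3812 in control_HS. It fell 2.58-fold (log2 fold change −1.37, SE 0.32, adjusted p = 0.0292). The cochaperone gene stv fell 2.24-fold, with 379, 434 and 329 in InRCA_noHS, 295, 476 and 435 in InRCA_HS and 627, 1061 and 914 in control_HS (adjusted p = 0.0165). In both genes the heated libraries of the transgene cross overlapped the unheated ones and lay on their side of the midpoint. Both calls were lost without InRCA_noHS replicate 1 or 3 or control_HS replicate 2 or 3 (up to 0.113 for Hsp68 and 0.0767 for stv, without control_HS replicate 2).

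The heat-inducible Hsp70 genes themselves did not pass. Hsp70Ba had 15.7, 58.5 and 26.6 adjusted counts in InRCA_noHS and 14.5, 27.8 and 34.8 in control_HS (adjusted p = 0.798). Hsp70Bb had 33.5, 134 and 42.3 in InRCA_noHS, 662, 402 and 520 in InRCA_HS, and 34.8, 107 and 148 in control_HS (adjusted p = 0.636). These copies are nearly identical in sequence, so how their reads were divided is uncertain. For Hsp70Bbb the log2 difference was −1.44 (adjusted p = 0.272) and for Hsp70Bc −1.03 (adjusted p = 0.505). Hsp83, the cytosolic Hsp90, had 17071, 18056 and 20468 in InRCA_noHS, 6626, 8453 and 8365 in InRCA_HS, and 10674, 11835 and 12444 in control_HS. The unheated libraries were the highest in every case, but the difference of 0.67 on the log2 scale narrowly missed the threshold (SE 0.18, adjusted p = 0.0517). The transcription factor gene Hsf differed by −0.04 (adjusted p = 0.904) and the constitutive Hsc70-4 by −0.12 (adjusted p = 0.795).

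The small heat shock proteins prevent unfolded proteins from clumping, and several of them are also switched on by ecdysone. Of 8 genes 2 rose (25%, against 3.25% of all genes) and 0 fell, and without control_HS replicate 1 the counts were 3 and 1. Hsp67Bc (FBgn0001229) had 1486, 2284 and 2005 adjusted counts in InRCA_noHS, 4237, 2073 and 599 in InRCA_HS, and 360, 191 and 317 in control_HS. It rose 6.77-fold (log2 fold change 2.76, SE 0.56, adjusted p = 0.0158), but not without InRCA_noHS replicate 2 or 3 or control_HS replicate 2 (up to 0.0751, without control_HS replicate 2). Hsp23 (FBgn0001224) had 47322, 46577 and 56956 in InRCA_noHS, 33354, 57195 and 29319 in InRCA_HS, and 27946, 12950 and 18138 in control_HS. It rose 2.67-fold (adjusted p = 0.0318), but not without any 1 InRCA_noHS library or without control_HS replicate 2 or 3 (up to 0.140, without control_HS replicate 2). Among the heated controls, replicate 1 was the highest for Hsp67Bc and Hsp23. Hsp26 had 2697, 5515 and 3786 in InRCA_noHS against 5239, 7330 and 7848 in control_HS and did not pass (log2 fold change −0.81, adjusted p = 0.101), and neither did Hsp27 (0.74, adjusted p = 0.134).

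**Figure D4:**
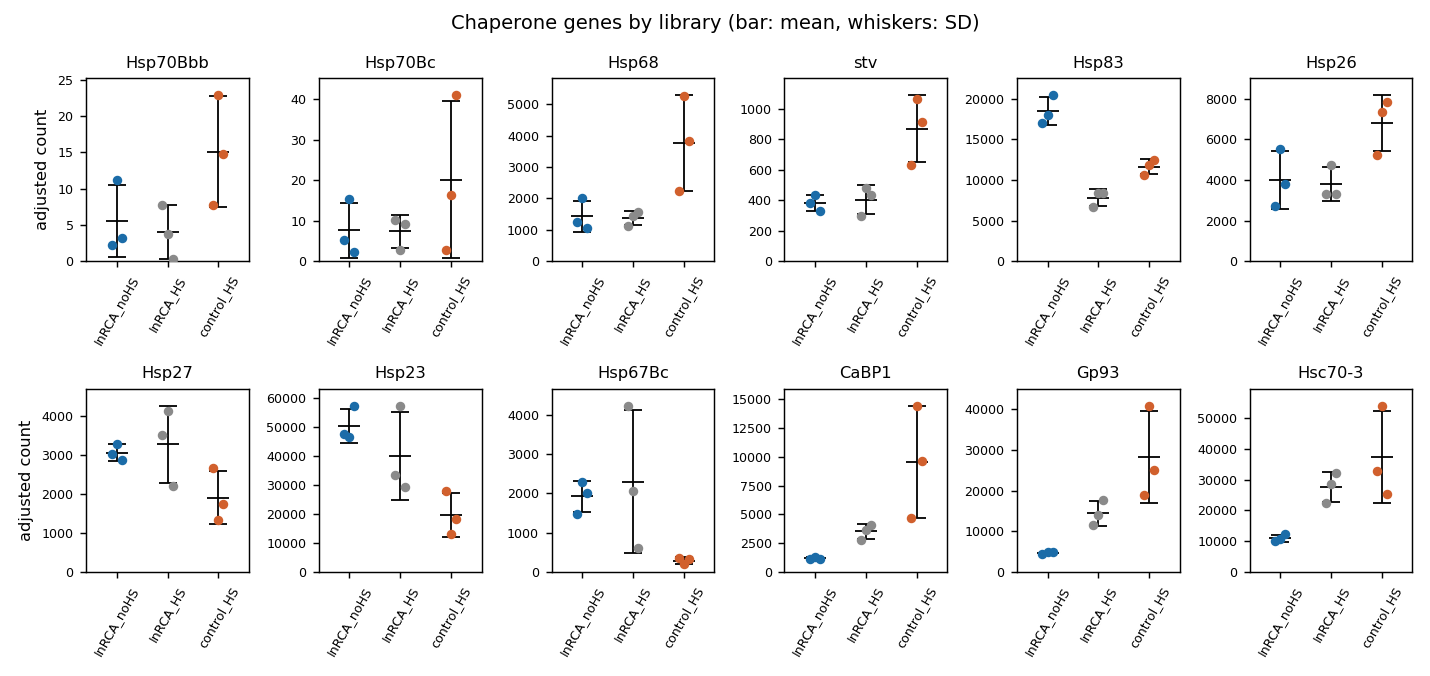
Adjusted counts (y axis, from 0, with its own scale in each panel) of 12 chaperone genes in each library of InRCA_noHS, InRCA_HS and control_HS; points are libraries, bars are group means and whiskers SDs of 3 libraries. CaBP1, Gp93 and Hsc70-3 are lowest without heat, Hsp23 and Hsp67Bc were higher in InRCA_noHS than in control_HS, and Hsp70Bbb and Hsp70Bc overlap between groups.

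The largest rises were mostly of unnamed genes. CG32335 (FBgn0063667) had 424, 312 and 367 adjusted counts in InRCA_noHS, 139, 140 and 152 in InRCA_HS, and 4.82, 11.5 and 9.62 in control_HS. It rose 39.9-fold (log2 fold change 5.32, SE 0.28, adjusted p = 4.82e-06). CG12224 (FBgn0037974) had 2870, 1969 and 2358 in InRCA_noHS, 1560, 2438 and 1548 in InRCA_HS, and 80.5, 83.6 and 86.2 in control_HS. It rose 28.1-fold (log2 fold change 4.81, SE 0.20) with the smallest adjusted p of the comparison, 1.37e-06. For both genes every library of the transgene cross, heated or not, was far above the controls. CG10005, CG18547 and CG12224 follow each other among the genes in the table on chromosome arm 3R. CG18547 rose 2.17-fold and CG10005 rose 2.04-fold, and both were named after their values were seen. CG18547 (adjusted p = 0.0176) lost its call without InRCA_noHS replicate 1 or 3 or control_HS replicate 3 (up to 0.0601, without InRCA_noHS replicate 1). CG10005 (adjusted p = 0.0403) lost it without any 1 InRCA_noHS library, InRCA_HS replicate 1 or control_HS replicate 2 or 3 (up to 0.162, without control_HS replicate 2).

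CG11192 rose 30.1-fold, with 55.1, 107 and 76.9 adjusted counts in InRCA_noHS, 13.0, 52.3 and 17.4 in InRCA_HS and 1.94, 1.20 and 1.67 in control_HS (adjusted p = 0.000393). CG42847 rose 29.0-fold, with 609, 330 and 184 in InRCA_noHS, 259, 221 and 224 in InRCA_HS and 3.82, 11.7 and 24.2 in control_HS (adjusted p = 0.000958). In both, every library of the transgene cross lay above the highest control. CG43291 rose 12.3-fold (adjusted p = 6.19e-05), and CG9666 rose 19.4-fold (adjusted p = 0.00800). Lgr1, which encodes a leucine-rich repeat G protein-coupled receptor for a glycoprotein hormone, had 165, 93.6 and 131 in InRCA_noHS, 117, 44.4 and 26.7 in InRCA_HS and 9.70, 9.28 and 6.87 in control_HS. It rose 13.4-fold (adjusted p = 0.00140), and replicate 1 of InRCA_HS lay within the InRCA_noHS range, while replicates 2 and 3 lay between the other groups. Of the 15 largest rises, those of PGRP-SB2, CR40621, CG3014 and CG31530 did not hold in all 9 fits without 1 library. CR40621 (16.9-fold, adjusted p = 0.0342) was lost without any 1 InRCA_noHS library or without control_HS replicate 1 or 2 (up to 0.140, without control_HS replicate 2). CG3014 (8.31-fold, adjusted p = 0.0160) was lost without InRCA_noHS replicate 2 or 3 or control_HS replicate 2 or 3 (up to 0.0714, without InRCA_noHS replicate 3), and CG31530 (7.73-fold, adjusted p = 0.0122) without InRCA_noHS replicate 3 (0.0558).

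Genes for abundant late larval fat body proteins split. Fbp2 (FBgn0000640) had 198420, 122650 and 192270 adjusted counts in InRCA_noHS, 104160, 155030 and 123840 in InRCA_HS, and 10683, 6081 and 7906 in control_HS. It rose 20.9-fold (log2 fold change 4.38, SE 0.32, adjusted p = 6.19e-05). Heated and unheated libraries of the transgene cross overlapped, and the lowest of them was far above the highest control. The other 5 larval serum and storage protein genes did not pass. Fbp1, which encodes a receptor for serum proteins, was at 1479100, 1014800 and 1430900 in InRCA_noHS and 846380, 707450 and 949350 in control_HS (log2 fold change 0.64, adjusted p = 0.563). The remaining 4 were below 0: Lsp1alpha at −0.52, Lsp1beta at −0.66, Lsp1gamma at −0.59 and Lsp2 at −0.39 (adjusted p 0.450 to 0.752). The list's median was −0.57 relative to that of all genes.

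Among 23 genes of the ecdysone response 6 rose (26.1%, against 3.25% of all genes) and 0 fell, and with TMM scaling 5 rose. Of the 23, 21 had a log2 fold change above 0, and the median was 0.72 relative to that of all genes. Without control_HS replicate 1, 15 rose and 0 fell. Eip63F-1, a calcium-binding protein gene induced by ecdysone, had 781, 431 and 580 adjusted counts in InRCA_noHS, 665, 787 and 239 in InRCA_HS and 190, 101 and 105 in control_HS, a rise of 4.56-fold (adjusted p = 0.0127). The nuclear receptor gene Eip78C had 1895, 2039 and 2458 in InRCA_noHS, 792, 1895 and 669 in InRCA_HS and 1030, 171 and 440 in control_HS, a rise of 4.95-fold (adjusted p = 0.0330). Control replicate 1 was the highest control for both genes. The nuclear receptor gene Hr39 rose 2.72-fold (adjusted p = 0.0241), Eip71CD rose 2.44-fold (adjusted p = 0.0259), the transcription factor gene Eip74EF 1.79-fold (adjusted p = 0.0403) and Eip93F 1.76-fold (adjusted p = 0.0267). None of these 6 calls held in all 9 fits. Each was lost without control_HS replicate 2, and Hr39, Eip78C, Eip74EF and Eip93F also without replicate 3. All but Eip93F were lost without InRCA_noHS replicate 1, all but Eip63F-1 without replicate 2 and all but Eip71CD without replicate 3, and Eip74EF was lost without InRCA_HS replicate 1 as well. The highest adjusted p for each ran between 0.0615 for Eip63F-1 and 0.158 for Eip74EF, both without control_HS replicate 2. The ecdysone receptor gene EcR differed by −0.11 on the log2 scale (adjusted p = 0.820) and its partner usp by 0.04 (adjusted p = 0.912).

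The salivary gland lies next to the fat body and makes glue proteins late in larval life. Of 8 salivary gland markers 1 rose (12.5%, against 3.25% of all genes) and 0 fell, and without control_HS replicate 1, 4 rose. The list's median was 1.26 relative to that of all genes, and 6 of the 8 were above 0. Sgs5 (FBgn0003375) had 16571, 6846 and 7725 adjusted counts in InRCA_noHS, 28613, 19645 and 10002 in InRCA_HS and 1181, 847 and 937 in control_HS, a rise of 9.77-fold (log2 fold change 3.29, SE 0.40, adjusted p = 0.00134). Sgs3 had 14185, 3032 and 5515 in InRCA_noHS, 6016, 19503 and 4474 in InRCA_HS and 7833, 2240 and 1741 in control_HS, and did not pass (log2 fold change 0.99, adjusted p = 0.428). The summed level of the list was 33572 to 105395 in InRCA_noHS, 58641 to 180823 in InRCA_HS and 14526 to 40606 in control_HS, and salivary RNA was thus present in all libraries. Its part in the rises of ecdysone genes was not tested.

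Among 15 genes for signals that the fat body secretes or for their regulators, 2 rose and 2 fell (13.3% each, against 3.25% and 3.78% of all genes). Ilp6 (FBgn0044047), the insulin-like peptide that the fat body itself makes, had 2400, 1747 and 2287 adjusted counts in InRCA_noHS, 609, 554 and 631 in InRCA_HS, and 980, 772 and 1085 in control_HS. It rose 2.27-fold (log2 fold change 1.18, SE 0.18, adjusted p = 0.00432), in all 9 fits without 1 library. The 3 groups did not overlap, with the unheated libraries highest. NLaz, a secreted lipocalin gene, rose 5.17-fold, with 1210, 1510 and 2014 in InRCA_noHS, 600, 1811 and 451 in InRCA_HS and 566, 146 and 319 in control_HS (adjusted p = 0.0267). The sugar-responsive transcription factor gene sug fell 3.41-fold (adjusted p = 0.0369), and Idgf1, a secreted growth factor gene, fell 1.93-fold (adjusted p = 0.0361). These 3 calls were lost without any 1 InRCA_noHS library or without control_HS replicate 2, those of NLaz and Idgf1 also without control_HS replicate 3, and that of Idgf1 also without InRCA_HS replicate 1. Their adjusted p reached 0.102 for NLaz and 0.146 for Idgf1, both without control_HS replicate 2, and 0.103 for sug, without InRCA_noHS replicate 1.

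Beside InR, 1 of the 20 insulin and TOR signalling genes passed: melt, a modulator of both branches, fell 1.91-fold (adjusted p = 0.0188), but not without InRCA_noHS replicate 2 or 3 or control_HS replicate 2 (up to 0.0782, without control_HS replicate 2). Rises and falls were each 5% of the list, against 3.25% and 3.78% of all genes. The list's median differed by 0.01 from that of all genes. The translation inhibitor gene Thor, a known target of foxo, had 2606, 1387 and 2014 adjusted counts in InRCA_noHS, 2141, 2106 and 1324 in InRCA_HS and 1415, 945 and 879 in control_HS. Its log2 difference of 0.88 did not pass (adjusted p = 0.0838), nor did that of foxo itself (0.53, adjusted p = 0.0943).

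Among detoxification genes, calls went in both directions. Cytochromes P450 are enzymes that oxidise foreign compounds and hormones. Of 74 genes 4 rose (5.41%) and 7 fell (9.46%), against 3.25% and 3.78% of all genes. The list's median was −0.16 relative to that of all genes, and with TMM scaling the counts were 3 and 9. Cyp6t1 rose 4.98-fold, with 102, 65.8 and 83.7 adjusted counts in InRCA_noHS, 100, 76.6 and 78.5 in InRCA_HS and 11.6, 20.7 and 16.3 in control_HS (adjusted p = 0.00124). Cyp6a21 rose 4.90-fold, with 160, 138 and 122 in InRCA_noHS, 43.6, 46.4 and 22.9 in InRCA_HS and 22.3, 25.6 and 36.6 in control_HS (adjusted p = 0.00241). The heated transgene cross was thus with the unheated one for Cyp6t1 and with the controls for Cyp6a21. Cyp4ad1 fell 6.55-fold (adjusted p = 0.00606) and Cyp309a1 fell 2.93-fold, with 1660, 997 and 1213 in InRCA_noHS, 983, 1228 and 1157 in InRCA_HS and 2864, 3726 and 4746 in control_HS (adjusted p = 0.00394). These 4 calls held in all 9 fits without 1 library. Of 30 glutathione S-transferase and UDP-glycosyltransferase genes 5 fell (16.7%) and 0 rose, among them Ugt58Fa (2.88-fold, adjusted p = 0.00850).

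The iron storage protein ferritin has a heavy and a light chain. Both Fer1HCH (2.12-fold, adjusted p = 0.0364) and Fer2LCH (2.08-fold, adjusted p = 0.0290) fell, and both lost the call without any 1 InRCA_noHS library or without control_HS replicate 2 or 3 (up to 0.131 for Fer1HCH, without control_HS replicate 2, and 0.0914 for Fer2LCH, without InRCA_noHS replicate 1). Few genes of protein synthesis were called, although cytosolic ribosomal protein and aminoacyl-tRNA synthetase genes leaned downward. Of 86 cytosolic ribosomal protein genes 0 rose and 0 fell by limma, although 72 had a log2 fold change below 0 and the median was −0.44 relative to that of all genes; 4 fell with TMM scaling and 7 without control_HS replicate 1. Among 71 mitochondrial ribosomal protein genes 1 passed, mRpL36, with 54.4, 76.0 and 55.9 adjusted counts in InRCA_noHS, 236, 240 and 241 in InRCA_HS and 128, 261 and 182 in control_HS, a fall of 2.94-fold (adjusted p = 0.00633). The aminoacyl-tRNA synthetases had 2 falls (9.52%) and 0 rises among 21 genes, and 4 falls with TMM scaling. Of the 21, 19 were below 0, and the median was −0.42 relative to that of all genes. The serpins, which inhibit proteases, had 1 fall and 1 rise among 18 genes (5.56% each), and 2 falls with TMM scaling. Over all genes 3.78% fell and 3.25% rose. The lists for ribosome biogenesis, the respiratory chain, antioxidants, the proteasome, autophagy, histones, replication and pigment pathways had 0 called genes by limma, and list medians, relative to that of all genes, between −0.34 (antioxidants) and 0.15 (histones). Over the 12 lists without a call, marker lists included, 51 of 287 genes (17.8%) had an unadjusted p under 0.05, against 23.7% of all genes tested. With edgeR on recovered reads 8 were called (2.79%), against 7.35% of all genes. These lists were picked for having 0 calls, so shares below those of all genes follow in part from that choice.

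Markers of other tissues were present in these fat body preparations. Of 19 muscle markers 3 fell (15.8%, against 3.78% of all genes) and 0 rose, and without control_HS replicate 1, 10 fell. Their median was −0.92 relative to that of all genes, and 17 of the 19 were below 0. Their summed level was 28976 to 45263 adjusted counts in InRCA_noHS, 40263 to 45274 in InRCA_HS and 44714 to 84455 in control_HS. Mlc2, a myosin light chain gene, had 8299, 3918 and 5283 in InRCA_noHS against 9516, 14991 and 15582 in control_HS, and fell 2.35-fold (adjusted p = 0.0313; 0.123 without control_HS replicate 2, and also lost without InRCA_noHS replicate 2 or 3 or control_HS replicate 3). Of 14 hemocyte markers 3 fell (21.4%) and 0 rose, with a summed level of 13533 to 17342 in InRCA_noHS and 19703 to 29996 in control_HS. The hemocyte median was −0.70 relative to that of all genes, and 10 of the 14 were below 0. The type IV collagen gene vkg, which the fat body expresses as well, fell 3.04-fold (adjusted p = 0.0110; 0.0522 without InRCA_noHS replicate 2). The defining hemocyte gene Hml had 1297, 1166 and 873 in InRCA_noHS and 2068, 2788 and 1305 in control_HS and did not pass (adjusted p = 0.144). Gut markers had 3 rises (6.25%) and 2 falls (4.17%) among 48 genes, against 3.25% and 3.78% of all genes. LysB, a digestive lysozyme gene, rose 4.01-fold (adjusted p = 0.00891), and the maltase gene Mal-A6 rose 3.57-fold (adjusted p = 0.00542). Cuticle markers had 3 falls among 35 (8.57%) and Malpighian tubule markers 2 rises among 9 (22.2%). Neuronal and testis or male-specific markers had 0 calls among 14 and 5. Relative to that of all genes, medians were 0.17 for gut, −0.26 for cuticle and 0.53 for Malpighian tubule markers. They were −0.31 for neuronal and 0.25 for testis or male-specific markers. With TMM scaling the rises of Malpighian tubule markers numbered 1 and the falls of muscle markers 5. The noncoding RNA gene roX1, which acts in dosage compensation in males, had 160, 80.2 and 88.5 adjusted counts in InRCA_noHS, 149, 95.5 and 208 in InRCA_HS and 82.4, 116 and 187 in control_HS, in libraries that are all labelled female (log2 fold change −0.22, adjusted p = 0.770). The part of these tissues in the differences of other genes was not tested.

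The InRCA_HS libraries share the cross with InRCA_noHS and the heat with control_HS, so each was placed, gene by gene, on the nearer side of the midpoint between the means of log2 levels of these groups. This is a description of called genes, without a test. Of the 337 higher genes, 100 had all 3 InRCA_HS libraries on the InRCA_noHS side (29.7%) and 58 had all 3 on the control_HS side (17.2%). Of the 392 lower genes, 100 (25.5%) had all 3 on the InRCA_noHS side and 174 (44.4%) on the control_HS side. For all 10372 genes these shares were 22.5% and 21.1%. CG32335, CG12224, Fbp2, Sgs5, Cyp6t1 and SPE are examples of the first kind, and Ilp6, CG5966, Cyp6a21, Ser7, PGRP-SC2, ACC and Gp93 of the second. The receptor was induced in InRCA_HS as well, so a place on either side does not separate cross, heat and receptor.

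**Figure D5:**
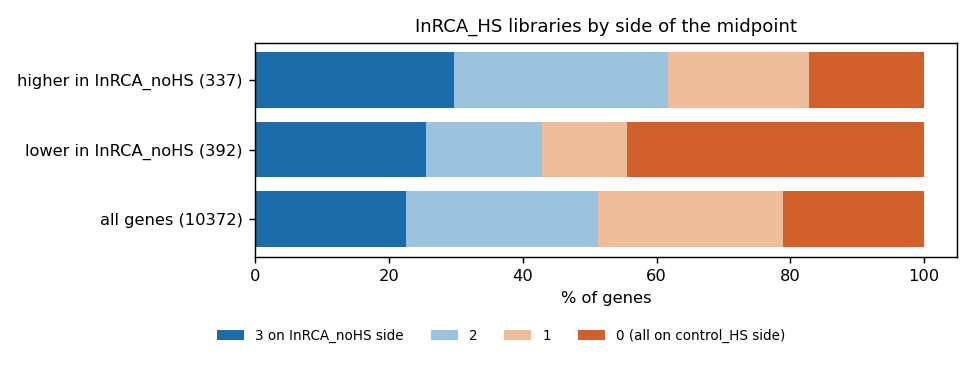
Share of genes (x axis, percent) by the number of InRCA_HS libraries, 3 to 0, that lie on the InRCA_noHS side of the midpoint, for genes higher in InRCA_noHS, genes lower in InRCA_noHS and all genes. All 3 libraries lie on the control_HS side for 44.4% of the lower genes, against 17.2% of the higher ones and 21.1% of all genes. Called genes were picked for a wide gap relative to the spread, so all genes are no like baseline for them.

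Called genes lay on every chromosome arm tested. The IDs of 9928 genes (95.7%) matched the Ensembl annotation. The share of genes that were higher was 3.02% on X, 3.51% on 2L, 2.73% on 2R, 3.50% on 3L and 3.51% on 3R, and the share that were lower was 4.01%, 3.62%, 4.88%, 3.35% and 3.47% on the same arms. On chromosome 4, 1 of 80 genes was higher (1.25%) and 0 were lower. Of the 701 called genes that matched, 111 stood in 51 runs of at least 2 genes called in the same direction. Genes of a run are neighbours among the matched genes in the table, and 6 runs had at least 3 genes. The number of runs expected without regard to position was not estimated. The IM run was the longest. Genes with only a CG or CR number made up 58.5% of the higher genes, 46.4% of the lower ones and 50.1% of all genes.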

How the data were processed

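RNA was sequenced after rRNA removal, per the labels' protocols. Tools listed in the submitters' processing notes are Bowtie 0.12.7, TopHat 1.3.2 and Cufflinks 1.1.0, with the build dm3. How reads were counted, and by strand or not, is not given in the sources used here, so overlapping and antisense genes are uncertain. The table the authors deposited holds a signal per gene and library, whose values behave as read counts brought to 1 library size; 0 columns belonged to other samples. Undoing the adjustment gave whole reads (within 0.1) for 98.8% of 38615 values up to 100. By library the share was 89.3% in InRCA_noHS replicate 1 and 99.7% to 100% in the others.

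All 9 libraries entered 1 fit of limma 3.58.1 (R 4.3.3) with 3 group means and an intensity trend, on log2(value + 1), which understates folds of low genes; a minimum mean of 1 removed 0 genes. Adjusted p-values of genes are limma's. The quasi-likelihood test of edgeR 4.0.16 on recovered reads was an alternative. Fold changes are InRCA_noHS over control_HS. On simulated data for this comparison (10157 genes), limma called 28.3% of 99 genes changed 2-fold and 84.9% of 93 genes changed 4-fold. It also called 7 of 9965 unchanged genes. Fewer genes changed there than were called here, and the adjusted p depends on that number, so these shares may not carry over. Every gene had at least 1 read in each library, so genes silent in 1 group are not seen.

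The comparison and its 43 gene lists were chosen with earlier results of these data known. Named genes are InR, w, the 15 largest calls each way, all heat shock genes and up to 4 of smallest p per list. Drs, CecC, Dro, pirk, Tl, Crc, Eip78C, Eip74EF and those marked so were added after values were seen, as were uncalled genes given for contrast. Sequences were not analysed here.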

Additional observations from a re-analysis of the deposited data

How the results depend on the processing

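Of the 124 named genes with a call, 0 changed direction under the alternatives run, and 60 kept the call in all 9 fits without 1 library. The count of higher genes was 220 with TMM scaling, 222 with median-ratio size factors and 207 with edgeR on recovered reads, where 541, 524 and 555 were lower. These 3 bring the median log2 fold change of all genes, 0.12 as reported, to between 0.00 and 0.01, and the 220 genes of TMM scaling were all among the 337. With array quality weights, which give control_HS replicate 1 the least weight, 742 were higher and 704 lower. Leaving out 1 library gave 96 to 681 higher and 164 to 740 lower genes; the fewest came without InRCA_noHS replicate 3 and control_HS replicate 2, and the most without control_HS replicate 1. Pseudocounts of 0.1 and 5, no filter, a minimum mean of 20, quantile normalization and a fit of only the 6 libraries kept both counts within 1.5 times. Replicate numbers did not pair the libraries (correlations of deviations −0.085, −0.0088 and −0.080); with the replicate block 251 were higher and 300 lower. In the simulated data, where fewer genes changed than were called here, 2-fold changes mostly escaped the test. A gene that did not pass is therefore not shown to be unchanged.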
